A study of Macaca mulatta with 16 samples.

Results

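Neutrophils are drawn into inflamed tissue by CXC chemokines and are supplied by the marrow under granulocyte colony-stimulating factor (G-CSF), and 6 genes of that axis were followed here in the fetal lung of the rhesus macaque. They are the chemokines CXCL8 and CXCL1, their receptors CXCR1 and CXCR2, the gene of G-CSF itself, CSF3, and its receptor CSF3R. The genes were taken by symbol, each through the rhesus Ensembl ID that carries it, and all 6 were found among the 22515 genes of the count table and passed the filter on low counts. The IDs are ENSMMUG00000060156 for CXCL8, ENSMMUG00000008367 for CXCL1, ENSMMUG00000019351 for CXCR1, ENSMMUG00000013400 for CXCR2, ENSMMUG00000002923 for CSF3 and ENSMMUG00000020434 for CSF3R.

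CXCL8 (interleukin-8) and CXCL1 are chemokines that carry the ELR motif and act on neutrophils through G protein-coupled receptors. CXCR2 binds several chemokines of this family, whereas CXCR1 is more selective and binds CXCL8 with high affinity. G-CSF acts on CSF3R, which signals through JAK kinases and STAT3, drives the production of neutrophils in the marrow, favours their release into blood and prolongs their survival. The receptors are carried mainly by neutrophils and their precursors, CSF3R also by monocytes. Epithelium, endothelium, macrophages and stromal cells can all make the ligands when they are stimulated by endotoxin, IL-1 or TNF.

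Lung RNA of 16 fetuses was sequenced after poly(A) selection, with 1 library for each animal. Preterm control animals (n = 4) were untreated and delivered at 131 to 135 days of gestation, and term control animals (n = 2) were untreated and delivered at 156 and 157 days. LPS 16h animals (n = 4) received 1 mg of lipopolysaccharide (LPS) of E. coli, the endotoxin of Gram-negative bacteria, into the amniotic fluid and were delivered 16 hours later at 130 or 131 days. LPS 5d animals (n = 3) received the same dose and were delivered after 5 days at 131 to 134 days, and LPS + Beta-Ac animals (n = 3) received the LPS while the dam was given 0.125 mg/kg of betamethasone acetate (Beta-Ac), a glucocorticoid, by intramuscular injection, with delivery after 5 days at 131 or 132 days. No animals given Beta-Ac alone were analysed here, so the effect of the steroid cannot be told apart from that of the combination.

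Library totals were 30596371 to 48052891 counts in LPS 16h and 20169363 to 28348816 in the other 12 libraries, and 19199 genes were tested. Levels are given as CPM, counts per 1000000 counts of the library after TMM, a scaling that corrects for differences in composition, and a gene is called at a Benjamini-Hochberg adjusted p value below 0.05 in limma together with a fold change of at least 2. The median log2 fold change of all genes in LPS 16h versus preterm control was -0.09 with TMM and -0.29 with library totals alone, and the share of calls that were higher was 57.8% and 39.4%. All 10 genes listed as markers of lung tissue were detected in every animal, among them the surfactant gene SFTPC at 1797 to 7546 CPM. In bulk tissue, fewer cells of a type and less RNA per cell cannot be told apart. The labels do not give the sex of the animals or a sequencing batch.

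The chemokine ligands and CSF3 were close to the limit of detection in the preterm lung and high 16 hours after LPS. CXCL8 gave 6, 1, 3 and 11 counts in the 4 preterm control animals, which is 0.261, 0.0462, 0.106 and 0.400 CPM. In LPS 16h the same gene reached 614, 446, 335 and 914 CPM. The lowest LPS 16h animal thus lay far above every other animal of the study, whose highest CXCL8 level was 28.0 CPM. The log2 fold change of CXCL8 in LPS 16h versus preterm control was 11.14 ± 0.46 (SE, adjusted p = 4.9e-10, limma). Because the preterm level rests on 21 counts in all, the ratio of the pooled CPM is the plainer measure, and it was 2670 with a 95% counting interval of 1740 to 4310. The interval covers counting error only and not the spread between animals.

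CXCL1 was measured at 0.479, 0.139, 0.780 and 0.473 CPM in preterm control and at 85.4, 115.9, 84.7 and 236.8 CPM in LPS 16h. The groups did not overlap, and the highest animal for CXCL1, animal 038, was also the highest for CXCL8 and CSF3. The log2 fold change was 7.95 ± 0.49 (SE, adjusted p = 1.7e-08, limma). CXCL1 belongs to a group of very similar chemokine genes, and how the authors' read assignment divided reads among them is not known here, so the value for this single gene is uncertain to that extent.

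CSF3 had 2, 1, 4 and 3 counts in the preterm control lungs and 768, 1898, 1644 and 2866 counts in LPS 16h. These counts are 0.0462 to 0.142 CPM against 27.3, 50.6, 38.3 and 83.4 CPM. Every LPS 16h animal was high, and no animal of any other group exceeded 0.269 CPM. The pooled ratio was 504 (95% counting interval 274 to 1050). The fitted log2 fold change was 8.14 ± 0.45 (SE, adjusted p = 3.4e-09, limma) and ran from 7.42 to 8.73 as the prior count was set to 5 or to 0.5. CSF3 passed the filter on low counts only through the LPS 16h animals. Its p values in comparisons with LPS 16h are therefore not independent of that filter.

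Among the receptors, CSF3R and CXCR1 rose 16 hours after LPS and CXCR2 was not called. CSF3R was 5.79, 6.70, 4.75 and 23.0 CPM in preterm control, and 140.4, 135.6, 198.8 and 96.1 CPM in LPS 16h. Animal 209 had the highest preterm value, and even so the groups did not overlap. The log2 fold change was 4.08 ± 0.41 (SE, adjusted p = 3.4e-06, limma) and was 4.58 without animal 209.

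CXCR1 stood at 1.83, 2.63, 1.92 and 1.86 CPM in preterm control and at 12.4, 14.6, 15.4 and 9.57 CPM in LPS 16h, with a gap between the groups. Its log2 fold change was 2.61 ± 0.22 (SE, adjusted p = 3.2e-07, limma). CXCR2, by contrast, was 4.75, 16.0, 19.1 and 17.2 CPM in preterm control and 16.3, 16.9, 13.7 and 8.43 CPM in LPS 16h. The ranges overlapped, with the lowest value in preterm animal 092. The log2 difference for CXCR2 was 0.09 (95% interval -0.74 to 0.91, adjusted p = 0.88, limma), -0.12 with library totals alone and -0.38 without animal 092. CXCR1 and CXCR2 are paralogs that lie next to each other in the RefSeq annotation of a later rhesus assembly (T2T-MMU8v2.0), and reads shared between them could have been divided by the authors' read assignment.

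Altogether 5 of the 6 genes were called higher and 0 lower in LPS 16h versus preterm control, where 8.3% of all genes tested were called higher and 6.07% lower. The plot of levels by animal shows how far the LPS 16h group lay from the rest for each gene.

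**Figure D1:**
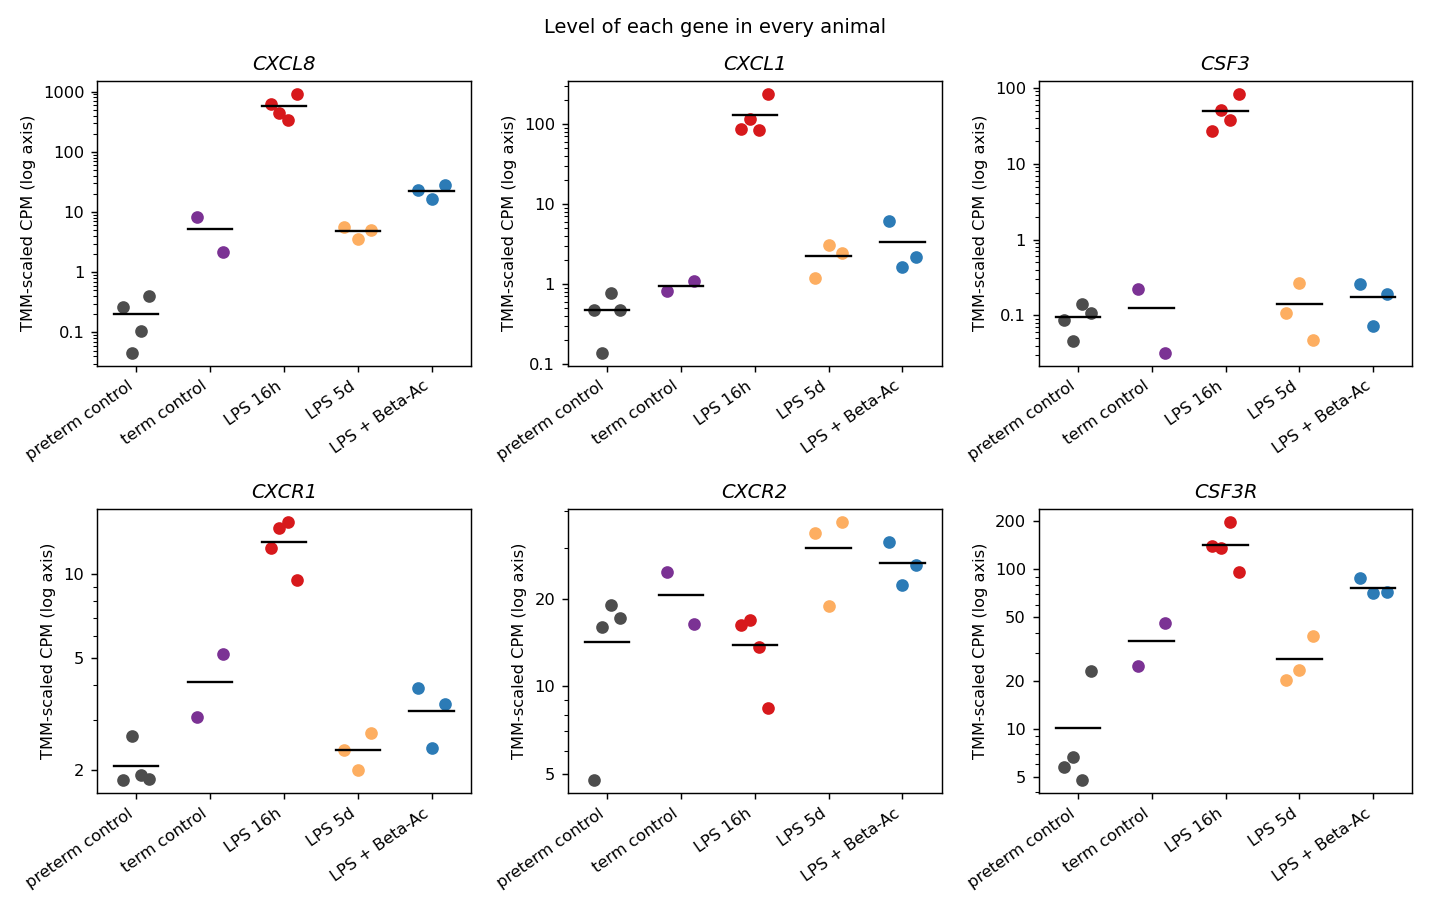
Level of the 6 genes in every animal, as TMM-scaled CPM on a log axis, by group. Each point is 1 animal and each bar the group mean. The 4 LPS 16h animals lie above all others for CXCL8, CXCL1, CSF3, CXCR1 and CSF3R, and for CXCR2 they lie between 8.43 and 16.9 CPM, within the range of the preterm control animals.

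Set side by side, the receptors gave a shift in their ratio. The CXCR1 to CXCR2 ratio of CPM, which is not corrected for gene length and is therefore read only between animals, was 0.758, 0.867, 1.13 and 1.13 in LPS 16h. In the 12 other animals it ranged from 0.0699 to 0.385, with the highest value in preterm animal 092, the animal with low CXCR2. The CXCL8 to CXCL1 ratio was 3.85 to 7.19 in LPS 16h, 0.136 to 0.846 in preterm control, 2.00 and 10.3 in term control, 1.16 to 4.70 in LPS 5d and 3.84 to 13.0 in LPS + Beta-Ac. The ratios are descriptions and were not tested.

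At 5 days the 3 ligands parted. CXCL8 remained above preterm control at 5.62, 3.61 and 5.08 CPM in the LPS 5d animals, with no overlap. The log2 fold change was 4.32 ± 0.50 (SE, adjusted p = 0.00029, limma), and the pooled ratio was 22.8 (95% counting interval 14.7 to 37.2). CXCL1 was 1.20, 3.11 and 2.42 CPM and was called as well, at 2.17 ± 0.53 (SE, adjusted p = 0.014, limma). That call was lost without LPS 5d animal 240 (adjusted p = 0.075) and with limma-voom (adjusted p = 0.17). CSF3 was back at 3, 7 and 1 counts, inside or near the 1 to 4 counts of the preterm animals. Its pooled ratio of 1.48 had a 95% counting interval of 0.569 to 3.88, so that a difference was not detectable at this depth.

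The receptors at 5 days did not follow each other either. CSF3R was 20.2, 23.5 and 38.0 CPM in LPS 5d, above 3 of the 4 preterm animals and overlapping with animal 209. The log2 fold change was 1.69 ± 0.45 (SE, adjusted p = 0.021, limma). It was 2.19 without animal 209 (adjusted p = 0.00026) and 1.42 without LPS 5d animal 242 (adjusted p = 0.091), and the call was also lost without preterm animal 092, 101 or 113 or LPS 5d animal 240, with adjusted p values of 0.051 to 0.061. With only LPS 5d and preterm control in the fit the call was lost too (1.71, adjusted p = 0.077, limma).

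CXCR1 was 2.36, 2.00 and 2.70 CPM, with animal 242 just above the highest preterm animal and the other LPS 5d animals within the preterm range (log2 difference 0.19, 95% interval -0.32 to 0.71, adjusted p = 0.66, limma). CXCR2 was 33.7, 18.9 and 36.9 CPM, and its log2 difference of 1.18 was not called (95% interval 0.29 to 2.08, adjusted p = 0.074, limma). Without preterm animal 092, that difference was 0.72 (adjusted p = 0.13). In all, 3 of the 6 genes were called higher and 0 lower in LPS 5d versus preterm control, against a background of 2.6% higher and 2.23% lower.

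When LPS was combined with Beta-Ac the same genes were called against preterm control, CXCL8, CXCL1 and CSF3R. CXCL8 was 23.6, 16.7 and 28.0 CPM in LPS + Beta-Ac, and the log2 fold change was 6.55 ± 0.50 (SE, adjusted p = 3.6e-06, limma). The pooled ratio was 108.0 (95% counting interval 70.5 to 175.0). CSF3R stood at 87.7, 70.6 and 71.9 CPM, well above the preterm animals, with a log2 fold change of 3.23 ± 0.45 (SE, adjusted p = 0.00031, limma).

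CXCL1 varied more, at 6.14, 1.63 and 2.16 CPM, and its highest value came from animal 248. Its log2 fold change was 2.58 ± 0.53 (SE, adjusted p = 0.0040, limma), and the call was lost with limma-voom (adjusted p = 0.079). CSF3 had 7, 2 and 5 counts, with a pooled ratio of 1.75 (95% counting interval 0.724 to 4.41). CXCR1 was 3.92, 2.39 and 3.43 CPM (log2 difference 0.63, 95% interval 0.11 to 1.14, adjusted p = 0.091, limma) and CXCR2 was 31.3, 22.3 and 26.1 CPM (log2 difference 1.06, 95% interval 0.17 to 1.95, adjusted p = 0.099, limma). Neither receptor was called, and the CXCR2 difference was 0.60 without preterm animal 092 (adjusted p = 0.20). The count was 3 of 6 higher and 0 lower, where 4.05% of all genes were called higher and 2.44% lower.

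The direct comparison of LPS + Beta-Ac with LPS 5d addresses what the steroid added to 5 days of LPS. Of the 6 genes 0 were called by limma, 2 had an unadjusted p below 0.05, and limma-voom called 0. Over all genes 0.104% were called higher and 0% lower, while 4.82% reached an unadjusted p below 0.05. CXCL8 was higher in each of the 3 LPS + Beta-Ac animals than in any LPS 5d animal, with a log2 difference of 2.23 (95% interval 1.09 to 3.37, unadjusted p = 0.00090, adjusted p = 0.20, limma). CSF3R also did not overlap between the groups, with a log2 difference of 1.54 (95% interval 0.52 to 2.56, unadjusted p = 0.0061, adjusted p = 0.45, limma). The share of all genes without overlap between these groups was not computed. For CXCL1 the difference was 0.41 (95% interval -0.81 to 1.62), for CXCR1 0.43 (95% interval -0.12 to 0.98) and for CXCR2 -0.12 (95% interval -1.08 to 0.83). CSF3 had so few counts in both groups that a difference was not detectable at this depth. The intervals of CXCL1, CXCR1 and CXCR2 span 0, and those of CXCL1 and CXCR2 leave room for a change of more than 1 on the log2 scale, upwards for CXCL1 and downwards for CXCR2.

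**Figure D2:**
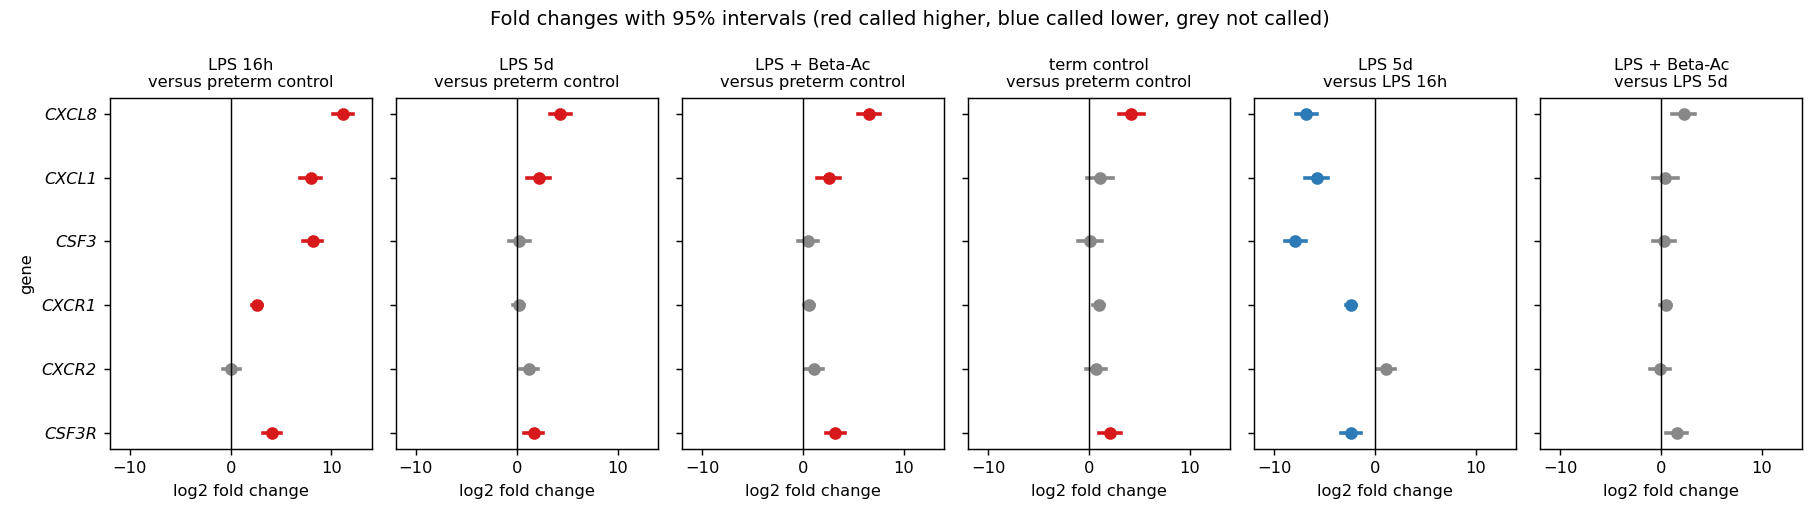
Log2 fold change of the 6 genes in 6 comparisons, with 95% intervals from the limma fit, red where called higher, blue where called lower and grey where not called. For CXCL8 the value is 11.14 in LPS 16h and 4.32 in LPS 5d versus preterm control, and CXCR2 is grey in each panel.

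In LPS 5d versus LPS 16h, after the same dose of LPS, 5 of the 6 genes were called lower and 0 higher, against 8.02% and 6.61% of all genes. The log2 difference was -6.82 ± 0.50 for CXCL8, -5.78 ± 0.53 for CXCL1 and -7.90 ± 0.48 for CSF3 (SE, adjusted p = 2.0e-07, 1.5e-06 and 2.6e-08, limma). It was -2.42 ± 0.24 for CXCR1 and -2.40 ± 0.45 for CSF3R (SE, adjusted p = 2.4e-06 and 0.00084, limma). CXCR2 did not overlap either, but with LPS 5d on the high side, since the lowest LPS 5d value of 18.9 CPM exceeded the highest LPS 16h value of 16.9 CPM. Its log2 difference of 1.10 was just short of the call (95% interval 0.20 to 1.99, adjusted p = 0.055, limma). It was called with limma-voom (adjusted p = 0.038), with library totals alone (0.024), when only these groups entered the fit (0.025), without preterm animal 092 (0.0056) and without LPS 5d animal 240 (0.036).

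LPS + Beta-Ac was compared with LPS 16h after the levels had been seen, so that neighbouring groups in the order of levels had a test. There 4 of 6 genes were called lower and 0 higher, against 6.68% lower and 5.88% higher among all genes. CXCL8 fell by 4.59 ± 0.50 on the log2 scale (SE, adjusted p = 1.0e-05, limma), with CXCL1, CSF3 and CXCR1 also lower. CSF3R was not called, at a log2 difference of -0.85 (95% interval -1.81 to 0.10, adjusted p = 0.16, limma), although the 3 LPS + Beta-Ac animals all lay below the lowest LPS 16h animal at 96.1 CPM.

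In the untreated term lung CXCL8 and CSF3R were higher than in the preterm lung. CXCL8 was 8.31 and 2.20 CPM in the term control animals, on 226 and 68 counts, with a log2 fold change of 4.20 ± 0.57 (SE, adjusted p = 0.0027, limma). It was 3.25 without term animal 200 and 5.14 without term animal 201. With limma-voom (adjusted p = 0.054) and with only these groups in the fit (0.053) the call was lost. CSF3R was 24.6 and 46.2 CPM, and its log2 fold change was 2.05 ± 0.51 (SE, adjusted p = 0.038, limma). That call was lost in 11 of the 16 fits that left out 1 animal, and the adjusted p reached 0.24 without term animal 201.

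CXCL1 was 0.809 and 1.10 CPM (log2 difference 1.08, 95% interval -0.21 to 2.37, adjusted p = 0.36, limma), CXCR1 3.09 and 5.17 CPM (0.95, 0.37 to 1.53, adjusted p = 0.067) and CXCR2 24.8 and 16.4 CPM (0.68, -0.34 to 1.69, adjusted p = 0.49, and 0.21 without preterm animal 092). CSF3 had 6 and 1 counts. In term versus preterm control 2 of the 6 genes were called higher and 0 lower, against 1.11% and 0.953% of all genes.

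Against term control, 0 of 6 genes were called in LPS 5d and 1 had an unadjusted p below 0.05, and 0 were called in LPS + Beta-Ac and 3 had an unadjusted p below 0.05 (limma). In both comparisons limma-voom called 0. Over all 19199 genes the same threshold was passed by 2109 in LPS 5d and by 2774 in LPS + Beta-Ac. The background was 0.0313% higher and 0.0313% lower for LPS 5d and 0.375% higher and 0.193% lower for LPS + Beta-Ac. CXCL8 in LPS + Beta-Ac was 2.36 above term on the log2 scale (95% interval 1.08 to 3.64, adjusted p = 0.088, limma), and this became a call without term animal 200 (3.30, adjusted p = 0.041). LPS 16h versus term control, also added after the levels had been seen, gave 5 of 6 genes higher and 0 lower, against 7.4% and 5.93%, with CXCR2 again the exception (-0.59, 95% interval -1.61 to 0.42). The 4 comparisons with preterm control share the same 4 animals, and those with term control the same 2.

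Ordered by group mean, CXCL8 ran from preterm control (0.204 ± 0.159 CPM, SD, n = 4) to LPS 5d (4.77 ± 1.04, n = 3), term control (5.25 ± 4.32, n = 2), LPS + Beta-Ac (22.8 ± 5.66, n = 3) and LPS 16h (577.3 ± 251.9, n = 4). Of the neighbours in this order, LPS 5d and term control and then term control and LPS + Beta-Ac were not called different, whereas the first and the last step were. CSF3R had the order preterm control (10.1 ± 8.67 CPM, SD), LPS 5d (27.2 ± 9.49), term control (35.4 ± 15.3), LPS + Beta-Ac (76.7 ± 9.51) and LPS 16h (142.7 ± 42.4), in which only the step from preterm control to LPS 5d was called. CXCR2 had its highest mean in LPS 5d (29.8 ± 9.59 CPM, SD) and its lowest in LPS 16h (13.8 ± 3.86), and no neighbouring groups in its order were called different. For CXCL1, CSF3 and CXCR1 the 4 lower groups followed each other without a called step, and the step up to LPS 16h was called in each.

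The ligands did not stand alone among chemokines of the family. Of 6 genes listed as other chemokines of this kind or decoy receptors, 4 were tested, CXCL2 had no row and CXCL5 was too low, at 0 to 12 counts in every animal. In LPS 16h versus preterm control 3 of the 4 were called higher and 0 lower, with a median log2 fold change of 5.88 against -0.09 over all genes, which in LPS 5d and LPS + Beta-Ac had medians of -0.0017 and -0.01. CXCL6, a ligand of both receptors that lies next to CXCL8 in the later RefSeq annotation, was 110.2 to 321.3 CPM in LPS 16h and 1.20 to 3.67 CPM in preterm control (log2 fold change 6.31, adjusted p = 8.4e-07, limma). CXCL3, another ligand of CXCR2, was 1279 to 2258 CPM and 26.5 to 37.8 CPM (5.66, adjusted p = 1.4e-08). ACKR1, the chemokine-binding receptor of venules and red cells, was 112.1 to 159.9 CPM and 1.02 to 3.09 CPM (6.10, adjusted p = 8.5e-10). PPBP, a platelet chemokine gene, was not called (0.33, adjusted p = 0.45). At 5 days 2 of the 4 were called higher in LPS 5d and 3 in LPS + Beta-Ac, with medians close to each other at 1.596 and 1.433. In untreated term versus preterm control 2 of the 4 were called higher and 0 lower, with a median of 1.49. For this list and those below, the background versus preterm control is the share of all genes tested that were called. It was 8.3% higher and 6.07% lower in LPS 16h, and 2.6% and 2.23% in LPS 5d. In LPS + Beta-Ac it was 4.05% and 2.44%, and in term control 1.11% and 0.953%.

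Of 15 tested genes for cytokines, cytokine receptors and transcription factors that act upstream of CXCL8 and CSF3, 9 were called higher at 16 hours and 0 lower, with a median log2 fold change of 2.52. The 6 others included JUN, a subunit of AP-1, at a log2 difference of -0.04 (adjusted p = 0.96, limma). IL1B, the gene of interleukin-1 beta, went from 0.601 to 1.79 CPM in preterm control to 782.4 to 1639 CPM (adjusted p = 3.9e-09, limma). IL1A had 0 to 2 counts in preterm control and 3282 to 6748 in LPS 16h, and TNF had 0 to 6 and 880 to 2138. IL17C, an epithelial cytokine of the IL-17 family, was at 0 in all 4 preterm animals and had 41 to 183 counts in LPS 16h, at least 23.9-fold higher when the preterm level is set to 3 counts per library.

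Among the inducers at 5 days, 3 of 15 were called higher in LPS 5d (IL1A, IL1B and REL) and 4 in LPS + Beta-Ac (those and TNF), with 0 lower in either group. The medians were 0.32 and 0.28, and 0.43 and 0.39 with IL17C left out, which cannot be given a fold change there. Term versus preterm control gave 2 higher and 0 lower, with a median of 0.35, or 0.55 with IL17C left out. IL1B was 6.13 to 7.26 CPM in LPS 5d and 6.41 to 38.1 CPM in LPS + Beta-Ac. TNF was 0.285 to 0.576 CPM and 0.579 to 1.92 CPM in the same groups. IL17A had at most 8 counts in any animal and IL22 at most 4, and neither was tested.

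Downstream of CSF3R, 10 of the 17 genes of the list were called higher in LPS 16h, 3 in LPS 5d and 5 in LPS + Beta-Ac, with 0 lower in each and medians of 1.36, 0.24 and 0.38. Untreated term control also had 3 higher and 0 lower versus preterm control, with a median of 0.11. SOCS3, a feedback inhibitor of STAT3 signalling that acts on this receptor, was 32.4 to 67.1 CPM in preterm control and 870.5 to 1355 CPM in LPS 16h (adjusted p = 4.4e-07, limma). It was called in LPS 5d (1.79, adjusted p = 0.0093). In LPS + Beta-Ac it was 58.0 to 198.6 CPM and not called. BCL2A1, a survival gene of the BCL2 family, was 114.6 to 130.2 CPM in LPS 16h, 3.30 to 5.08 in LPS 5d and 9.82 to 16.9 in LPS + Beta-Ac, against 0 to 0.497 CPM in preterm control. PIM1, a kinase induced by STAT proteins, was called in LPS 16h (2.67, adjusted p = 3.4e-09) and in LPS + Beta-Ac (1.07, adjusted p = 0.00040). GFI1, a transcription factor of neutrophil development, was called in LPS 5d (1.08, adjusted p = 0.011) and in LPS + Beta-Ac (1.25, adjusted p = 0.0031).

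Of 14 genes that act below CXCR1 and CXCR2, 5 were called higher in LPS 16h, 5 in LPS 5d and 6 in LPS + Beta-Ac, with 0 lower in each and medians of 0.53, 0.28 and 0.53. The untreated term lung had 5 higher and 0 lower versus preterm control as well, with a median of 0.24. VAV1, a signalling protein of blood cells, was 2.52 to 3.24 CPM in preterm control, 36.3 to 61.7 in LPS 16h, 7.29 to 10.4 in LPS 5d and 17.5 to 29.4 in LPS + Beta-Ac. It was called higher in LPS + Beta-Ac versus LPS 5d (log2 fold change 1.40, adjusted p = 0.0496, limma), a call lost when only these groups entered the fit, which then called 0 genes. VAV1 is used by other leukocyte receptors too.

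**Figure D3:**
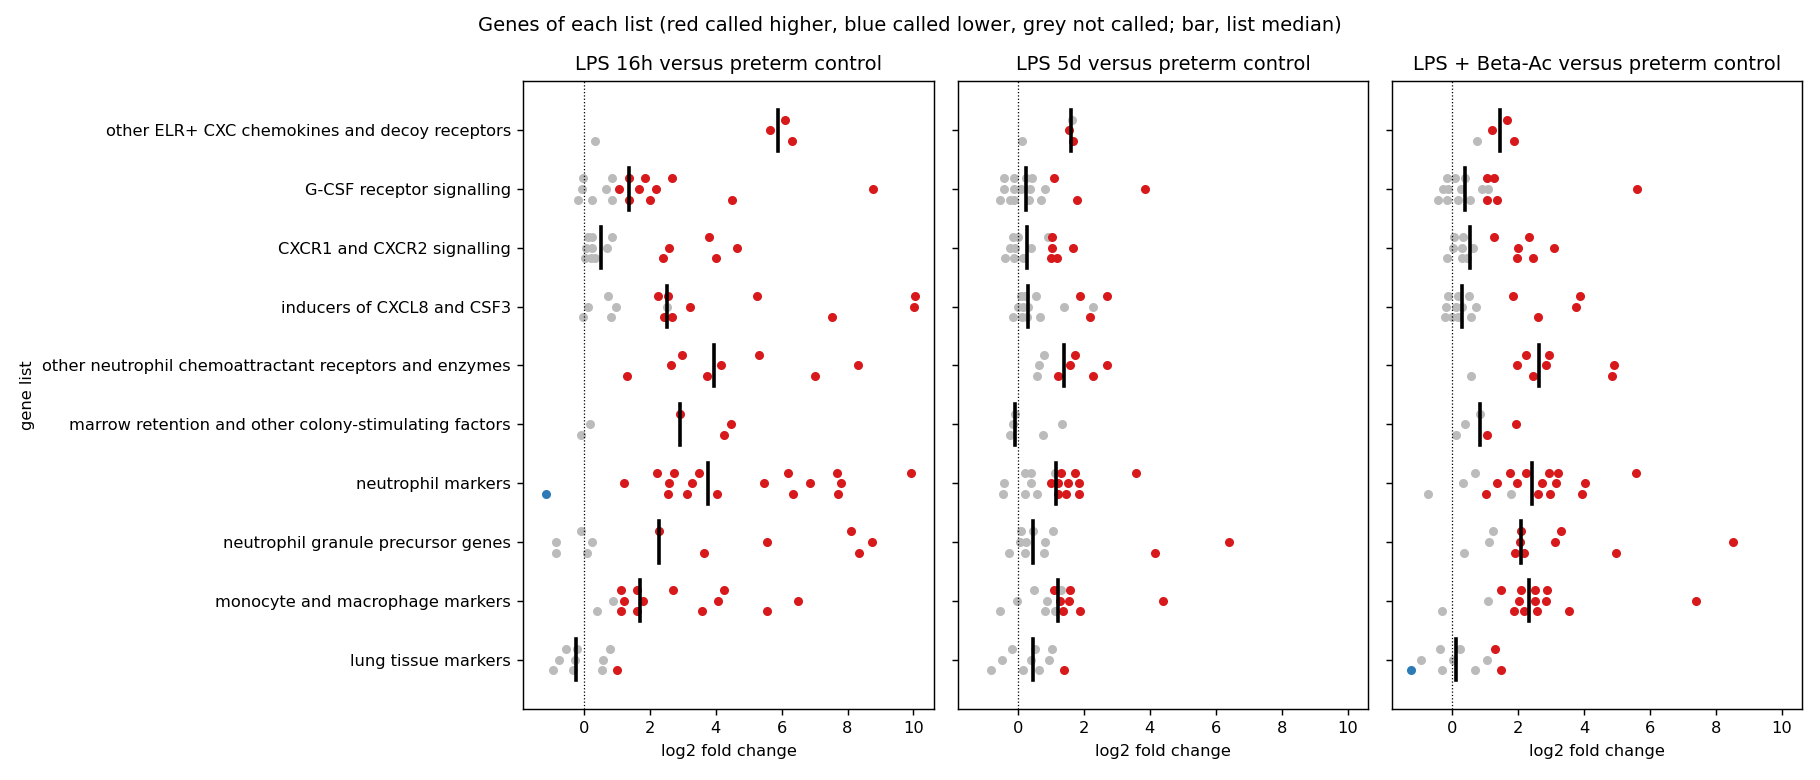
Log2 fold change versus preterm control of the genes of each list in LPS 16h, LPS 5d and LPS + Beta-Ac, each point 1 gene, red called higher, blue called lower and grey not called, with a bar at the list median. The median of the neutrophil markers is 3.76 in LPS 16h, 1.16 in LPS 5d and 2.42 in LPS + Beta-Ac, and that of the lung tissue markers is between -0.23 and 0.46.

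Most of the listed markers of neutrophils were called higher in each LPS group, and CSF3R was too. CXCR1 was called in LPS 16h alone and CXCR2 in no LPS group versus preterm control. Of 18 markers, 17 were called higher and 1 lower in LPS 16h, 10 higher in LPS 5d and 14 higher in LPS + Beta-Ac, with medians of 3.76, 1.16 and 2.42. Without LPS, term versus preterm control gave 9 higher and 0 lower, with a median of 1.57. In LPS + Beta-Ac versus LPS 5d, 2 of the 18 were called higher and 0 lower, with a median of 1.37. Over all genes 0.104% were called higher there, and a fit of these groups alone called 0 genes. Of the markers PROK2 was at 0 in all 4 preterm animals, MMP8 in 3 and S100A12 in 2, and with PROK2 left out the LPS 5d median was 1.21. Their summed level was 99.2 to 124.8 CPM in preterm control, 1992 to 2536 in LPS 16h, 157.7 to 232.6 in LPS 5d, 298.6 to 506.8 in LPS + Beta-Ac and 228.5 and 235.2 in term control. S100A8 and S100A9, the calprotectin subunits, were 381.4 to 658.7 and 776.4 to 1204 CPM in LPS 16h, against 1.57 to 4.26 and 3.22 to 7.73 in preterm control. MMP8, the neutrophil collagenase, had 0 to 2 counts in preterm control and 1602 to 6405 in LPS 16h, and TREM1, a receptor that amplifies myeloid activation, had 4 to 25 and 3397 to 4484. The lower gene was BST1, which stromal cells also express, at 12.5 to 22.5 CPM against 29.5 to 47.8 CPM. Not all markers stayed up at 5 days, and MMP8 had 1 count in each LPS 5d animal. PADI4 and VNN2 were 3.2 to 3.9 and 8.8 to 10.9 CPM in LPS 5d, against 2.4 to 4.3 and 10.5 to 17.3 CPM in preterm control.

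The share of the receptors' differences that goes with the markers was not tested. Animal by animal, CSF3R and CXCR1 were high in the 4 LPS 16h animals that had the highest summed markers. CXCR2 was not high in those animals, at 8.43 to 16.9 CPM beside summed markers of 1992 to 2536 CPM. Preterm animal 209, with 23.0 CPM of CSF3R, had a summed marker level of 101.3 CPM, within the range of the other preterm animals. The sum rests on different genes in different groups. Its largest means were BST1 (36.5 CPM), KCNJ15 (19.9) and VNN2 (13.6) in preterm control, and S100A9 (958.0) and S100A8 (505.1) in LPS 16h. Whether the CSF3R level of animal 209 goes with more neutrophils was not tested.

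**Figure D4:**
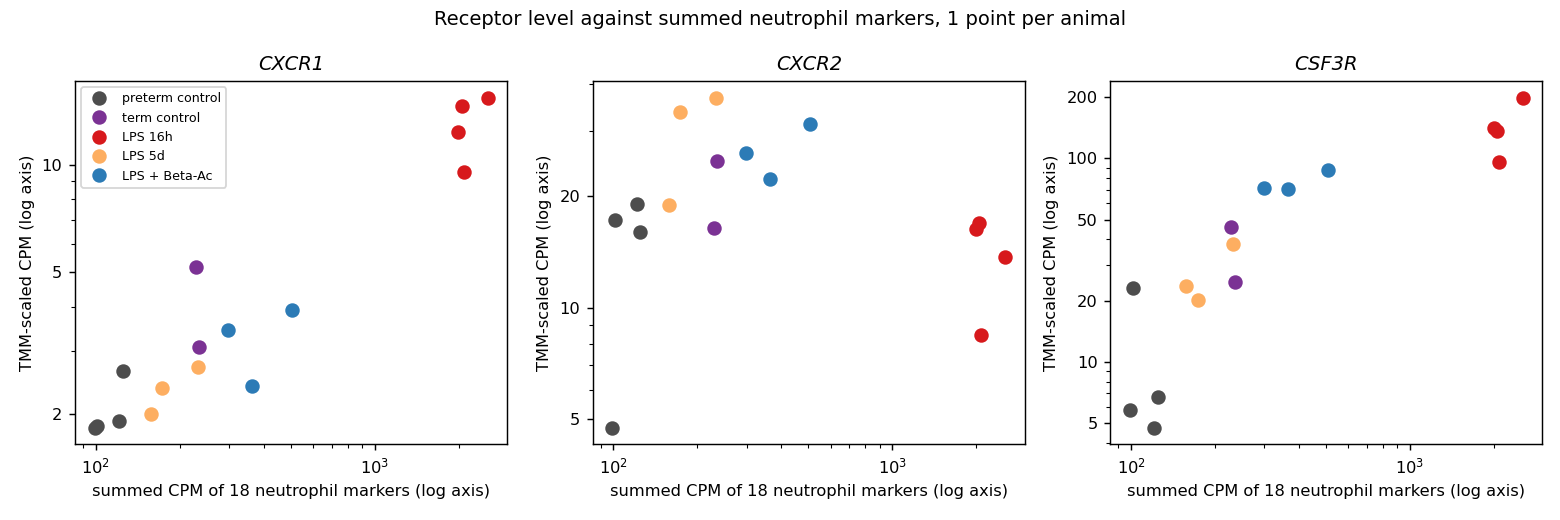
CPM of CXCR1, CXCR2 and CSF3R against the summed CPM of 18 neutrophil markers, both on log axes, each point 1 animal coloured by group. The 4 LPS 16h animals lie at the right, at 1992 to 2536 CPM of markers, and their CXCR2 level of 8.43 to 16.9 CPM lies within the range of preterm control. The genes that make up most of the sum differ between preterm control and LPS 16h.

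Granule genes, most of them transcribed in neutrophil precursors in the marrow, were divided. Of 11 tested, 6 were called higher in LPS 16h, 2 in LPS 5d and 8 in LPS + Beta-Ac, with 0 lower in each and medians of 2.30, 0.45 and 2.07. Term versus preterm control gave 3 higher and 0 lower, with a median of 1.27. In LPS + Beta-Ac versus LPS 5d, 0 of the 11 were called, with a median of 1.12. LCN2, a gene also made by stimulated epithelium, was 1848 to 2282 CPM in LPS 16h, 83.4 to 199.6 in LPS 5d and 165.7 to 357.1 in LPS + Beta-Ac, against 5.04 to 12.1 CPM in preterm control. MMP9 (gelatinase B), which macrophages make too, was 171.0 to 253.5, 28.6 to 72.7 and 105.7 to 307.9 CPM in the same groups, against 0.109 to 0.828 CPM. The primary granule gene MPO was 0.204 to 0.720 CPM in LPS 16h and was not called there (log2 difference 0.26, adjusted p = 0.84, limma). Of the 11 genes, 8 had a log2 fold change above 0 in LPS 16h. The mean of AZU1 was lower there, at 2.48 CPM against 4.55 CPM in preterm control. That of ELANE was 0.347 CPM against 0.643 CPM, and neither gene was called. In LPS + Beta-Ac MPO was called (3.28, adjusted p = 0.028), although its values ran from 0.655 to 26.3 CPM.

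Receptors and enzymes of other neutrophil attractants gave calls throughout, with 8 of 8 higher in LPS 16h, 5 in LPS 5d and 7 in LPS + Beta-Ac and medians of 3.96, 1.38 and 2.64. Untreated term control had 5 higher and 0 lower versus preterm control, with a median of 1.32. FPR1 and FPR2, receptors for formyl peptides and related ligands, were 22.7 to 31.4 and 20.4 to 48.3 CPM in LPS 16h, and at most 0.390 and 0.131 CPM in preterm control. ALOX5AP, which serves the leukotriene pathway, was 132.1 to 174.5 CPM against 3.23 to 4.88 CPM (log2 fold change 5.32, adjusted p = 6.4e-10, limma). CXCL12 and CXCR4, the pair that holds neutrophils in the marrow, were not called in LPS 16h (0.18 and -0.07, adjusted p = 0.40 and 0.84). Other colony-stimulating factors did rise there, CSF1 by 4.25 and CSF2 by 4.46 (adjusted p = 2.9e-10 and 3.1e-05), and 3 of the 5 genes of that list were called higher in LPS 16h, 0 in LPS 5d and 2 in LPS + Beta-Ac.

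Monocyte and macrophage markers were higher as well, and monocytes also carry CSF3R. Of 14, 12 were called in LPS 16h, 7 in LPS 5d and 12 in LPS + Beta-Ac, with 0 lower in each, medians of 1.71, 1.20 and 2.34, and summed levels of 1480 to 1740, 452 to 464 and 679 to 1040 CPM against 285 to 382 CPM in preterm control. In term versus preterm control 2 were called higher and 0 lower, with a median of 1.17. CD163, a scavenger receptor of macrophages, was 61.9 to 122.5 CPM in LPS + Beta-Ac and 18.3 to 26.1 in LPS 5d, and was called between these groups (1.97, adjusted p = 0.0496, limma), a call also lost when only these groups entered the fit. MARCO, another scavenger receptor, was at 0 in all 4 preterm animals and had 91 to 338 counts in LPS 16h, 8 to 90 in LPS 5d and 107 to 921 in LPS + Beta-Ac. Its part in the CSF3R result, like that of the other markers, was not tested.

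By likeness of log2 CPM over the 16 animals, the genes closest to CXCL8 were ALOX5AP, BCL2A1, GPR84, C3AR1 and LCP1, with a highest Pearson r of 0.983 for ALOX5AP. After group means were subtracted r was 0.289 to 0.569, so most of the likeness lay between groups. For CSF3 the closest were PTX3, UCHL3, ZDHHC9, IL17C and SEC23B (0.992 to 0.988, and 0.607 to 0.703 within groups), and PTX3, which encodes a soluble pattern recognition protein, was at a mean of 547 CPM in LPS 16h and 3.29 CPM in preterm control. CSF3R was closest to NCF1, MMP25, APOBR, FPR1 and NCF4 (0.960 to 0.929, and 0.163 to 0.565 within groups). CXCR2 was closest to PLAG1, CLDN24, PTGR1, IMMP2L and DDC at a lower r of 0.828 to 0.806, and its r with CXCR1 was -0.18 and with CSF3R 0.17, against 0.34 and 0.27 within groups. These correlations are descriptions: the animals share group, library depth and cell content, and no p is given.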

How the data were processed

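Lung RNA of 16 animals was analysed, 1 library each, grouped by the sample labels. The authors pseudoaligned 75 bp paired-end reads with kallisto (Mmul_10), collapsed transcripts to genes with tximport and tested with DESeq2. What they deposited is a table of unnormalized counts, in whole numbers, by Ensembl gene, and versions were not stated. Its bare-number column names kept the unit check from reading it, so no count model was run here and limma took its place.

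After TMM scaling, log2 CPM were computed (prior count 2, R 4.3.3). The limma 3.58.1 fit (trend, robust) held 1 mean per group and all 16 animals. Of 22515 genes 19199 were tested, those at 0.371 CPM by library total in at least 2 animals and 15 counts in all. Among others, CSF3, IL17C and PROK2 passed only through the LPS 16h animals. A first fit filtered on TMM-scaled CPM, and library totals replaced it after its results had been seen. Tests are two-sided, and p values measure the spread between animals. Counting intervals (95%, exact binomial, SciPy 1.17.1) cover counting error only. No 2 libraries of a group agreed within sampling noise. Symbols matched 17256 IDs. No sequences or gene lengths were used here, so levels are not compared between genes. The steps were tested on simulated data. The values of 1 listed gene are not reported here.

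The 6 genes and the gene lists were chosen with earlier results of these data known. Named are the 6 genes in every comparison, up to 4 called genes with the largest change per list and LPS comparison, the 2 most abundant genes of each leukocyte list, and the 5 genes most like CXCL8, CSF3, CXCR2 and CSF3R. Others (BST1, KCNJ15, PADI4, VNN2, PPBP, MPO, AZU1, ELANE, CXCL5, CXCL12, CXCR4, IL17A, IL17C, IL22, PROK2, SFTPC) were named after their values were seen. Alternatives were other scalings, filters and prior counts, no minimum fold, limma-voom, only the compared groups, and each animal left out. Thinning of the LPS 16h libraries and the comparisons of LPS 16h with term control and with LPS + Beta-Ac were added after seeing the data.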

Additional observations from a re-analysis of the deposited data

Results flagged for a closer look

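In groups of 4 animals, the level of each gene and the summed leukocyte markers were searched for an animal set apart from the other 3, by the gap to its nearest neighbour divided by the range of the group on the log2 scale. Of 18 such groups 2 had one, and chance gives about 1 in 20. CXCR2 was lowest in preterm control animal 092, at 4.75 CPM against 16.0 to 19.1 CPM (gap 0.872 of the range), and CXCR1 was highest in preterm control animal 101, at 2.63 CPM against 1.83 to 1.92 CPM (gap 0.875 of the range). The CXCR2 differences from preterm control without animal 092 stand in the report.

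The effect of LPS differed between 16 hours and 5 days for 5 of the 6 genes, in the direct limma test of the groups. The log2 differences of LPS 5d from LPS 16h were -6.82 for CXCL8, -5.78 for CXCL1, -7.90 for CSF3, -2.42 for CXCR1 and -2.40 for CSF3R, and every LPS 5d animal was below every LPS 16h animal for each of the 5. The share of all genes without such overlap was not computed, and 44.1% of all genes tested had an unadjusted p below 0.05 here (limma). CXCR2 was not called in this test. The LPS 16h libraries were also the deepest, and with their counts thinned to the median total of the others CXCR2 was called higher in LPS 5d (1.15, adjusted p = 0.049, limma).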

How the results depend on the processing

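Each fit gave a log2 fold change for each of the 6 genes in each comparison. These values kept their direction and their side of the threshold in 924 of 960 cases with 1 animal left out. Under other settings they did so in 521 of 534 cases. Many of the 960 leave out an animal of neither compared group, where the value hardly moves, so the share that held is partly fixed in advance. A call was lost in 18 and 6 of these cases and gained in 3 and 5. No called value changed sign, but values that were not called did in 15 and 2. With 1 animal left out, the log2 difference ranged from -0.38 to 0.31 for CXCR2 in LPS 16h, -0.16 to 0.60 for CSF3 in LPS 5d and -0.67 to 0.84 for CSF3 in term control, each versus preterm control. In LPS + Beta-Ac versus LPS 5d it ranged from -0.086 to 0.68 for CSF3, -0.15 to 0.78 for CXCL1 and -0.42 to 0.058 for CXCR2. In LPS 5d versus term control it ranged from -0.59 to 0.91 for CSF3, -0.82 to 0.089 for CSF3R and -0.82 to 1.07 for CXCL8, and in LPS + Beta-Ac versus term control from -0.32 to 1.18 for CSF3 and -0.69 to 0.041 for CXCR1. CXCR2 in LPS 16h versus preterm control was -0.12 with library totals alone, and CSF3 in term versus preterm control was -0.12 with limma-voom. The calls that changed were CSF3R and CXCL1 in LPS 5d, CXCL1 in LPS + Beta-Ac, and CXCL8 and CSF3R in term control, each versus preterm control, CXCR2 in LPS 5d and in LPS + Beta-Ac versus LPS 16h, CXCL8 in LPS + Beta-Ac versus term control and CSF3R in LPS 16h versus term control. For the last of these the call was lost without term control animal 200 (1.58, adjusted p = 0.10, limma), and CXCR2 in LPS + Beta-Ac versus LPS 16h was called with library totals alone (1.16, adjusted p = 0.042). The cause was not tested.

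Counts of genes called over the whole table moved by over 1.5 times in these cases. Without a minimum fold change they went from 2758 to 7359 in LPS 16h, 928 to 2827 in LPS 5d, 1247 to 3317 in LPS + Beta-Ac and 397 to 766 in term control, each versus preterm control. They went from 2810 to 6718 in LPS 5d and 2411 to 6135 in LPS + Beta-Ac versus LPS 16h, 2560 to 5790 in LPS 16h versus term control and 12 to 19 in LPS 5d versus term control. With only the compared groups in the fit, so fewer animals, limma called 116 genes in term versus preterm control, 13 in place of 109 in LPS + Beta-Ac versus term control, 0 in LPS 5d versus term control and 0 in place of 20 in LPS + Beta-Ac versus LPS 5d, where limma-voom called 7 and 3 in the last 2. Leaving out 1 animal gave 129 to 562 genes in term versus preterm control (lowest without term animal 200), 2 to 57 in LPS + Beta-Ac versus LPS 5d (lowest without LPS 5d animal 240), 0 to 25 in LPS 5d versus term control (lowest without preterm animal 092) and 17 to 137 in LPS + Beta-Ac versus term control (lowest without term animal 201).

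With library totals alone, the share of calls that were higher went from 45.2% to 62.0% in LPS 5d and 46.8% to 64.5% in LPS + Beta-Ac versus LPS 16h, from 55.5% to 29.6% in LPS 16h, 50% to 37.5% in LPS 5d and 66.1% to 52.8% in LPS + Beta-Ac versus term control. Depth limits CSF3, which had at most 7 counts in any animal outside LPS 16h. No paired analysis was possible because each animal belongs to 1 group and no animal number recurs.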
